A study of Mus musculus with 31 samples.

Results

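RNA-Seq of whole hearts was used to compare female with male mice that carried 1 Val and 1 Met allele of Bdnf (Val/Met). The comparison used the 4 female and 6 male Val/Met hearts among the 31 hearts of the series, selected by the genotype label and by the sex given at the start of each title. Autosomal genes with a mean of at least 29 deposited units over the 31 hearts were tested, 13242 of the 13840 genes in the table. The Met allele is a knock-in of the human BDNF coding variant (labelled hBDNF), and per the study's methods the mice were bred from heterozygous pairs, so that a Val/Met heart holds 1 human Met allele and 1 mouse allele. All mice were 8 weeks old and received no treatment named in the labels. The tissue was the whole heart, with atria, valves, vessels and surface layers together with ventricular muscle. The other groups, used for the test of genotype, were 6 female and 5 male Val/Val littermates and 6 female and 4 male Met/Met mice.

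Female and male hearts differ in size, in the handling of calcium and in the response to load, and sex hormones, growth hormone pulses and corticosteroids all reach heart muscle. Heart cells also keep a circadian clock. In this clock the activators Bmal1 (the Arntl gene), Clock and Npas2 switch on the Per and Cry repressors and the Rev-erb receptors Nr1d1 and Nr1d2, which then shut the activators down, and output factors such as Dbp, Tef and Hlf carry the rhythm to other genes. BDNF, the neurotrophin encoded by Bdnf, acts through the TrkB receptor on neurons and also reaches vessels and heart muscle.

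The table gives, for each gene and heart, a read count normalized to the reads of the sample, called a normalized read count here. The values of a Val/Met heart summed to between 28804771 and 29459862 with Gm4613 left out, a predicted gene with an extreme value (37229600) in female replicate 5, and the median gene had between 474 and 478.8 normalized read counts. The library names carry 3 prefixes, 2766, 2970 and 3113. Female replicates 1 and 2 and male replicates 1 to 3 had the first, male replicate 4 the second, and female replicates 5 and 6 and male replicates 5 and 6 the third. In the deposited values the prefix means within each Val/Met group were equal to within 0.01 on the log2 scale for 13729 of 13733 genes. The 2 females of a prefix therefore lie equally far above and below their group mean, and male replicate 4, alone in its prefix, lies on it. The test counted 1 mean per group and prefix, which left 17 residual degrees of freedom over the 31 hearts. The sex labels were checked with 4 X-linked genes known to escape inactivation (Eif2s3x, Kdm6a, Kdm5c and Ddx3x), each of which was higher in every female than in every male Val/Met heart. Xist and the usual Y-linked genes were not analysed here. Of the markers of other cells, the summed level of the 6 erythroid genes ranged from 60596 to 114617 in females and from 49209 to 242562 in males, and that of the 7 macrophage genes from 4808 to 7490 and from 5919 to 7198. None of these 13 genes passed p under 0.05. Lung and airway markers were not analysed here.

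Between the sexes, 301 autosomal genes differed at p under 0.05 and at least 1.5-fold, which is 2.27% of those tested. Of these, 178 were higher and 123 lower in females. Without female replicates 2 and 6, in which interferon genes were high, the count was 374, with 181 higher and 193 lower. Protein-coding genes made up 78.7% of the 301 and 87.52% of all genes tested. An adjusted p under 0.05 (limma, Benjamini-Hochberg over all genes tested) was reached by 158 genes (1.19%), 80 higher and 78 lower in females. The median difference over all autosomal genes was -0.01 on the log2 scale. In 1532 genes (11.6%) no female heart overlapped any male heart, and of the 301 genes 183 were of this kind. The deposited values hold nearly no spread between prefixes within a sex. A lack of overlap, here and below, is therefore easier to reach than with hearts that vary freely. When a heart is left out, here and below, the hearts of the other prefixes still lie around the full group mean. Such a fit cannot show what the difference would be without that heart. Since whole hearts were measured, fewer cells of a type and less RNA per cell cannot be told apart for any gene described here.

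Genes were next grouped by cardiac process. For these lists a member is called when p is under 0.05 and the difference is at least 0.32 on the log2 scale in either direction, the low stringency that the study set for its heterozygous hearts. The p of this rule is unadjusted, so many called members have an adjusted p above 0.05, which is printed with each value. Over all autosomal genes, this rule called 3.59% as higher in females and 2.98% as higher in males. Across 21 lists, the circadian clock had the largest share of called members (59.1%, 13 of 22), followed by natriuretic peptides and stress genes (50.0%, 7 of 14) and glucocorticoid targets (47.4%, 9 of 19). No member of the glucose list was called.

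**Figure D1:**
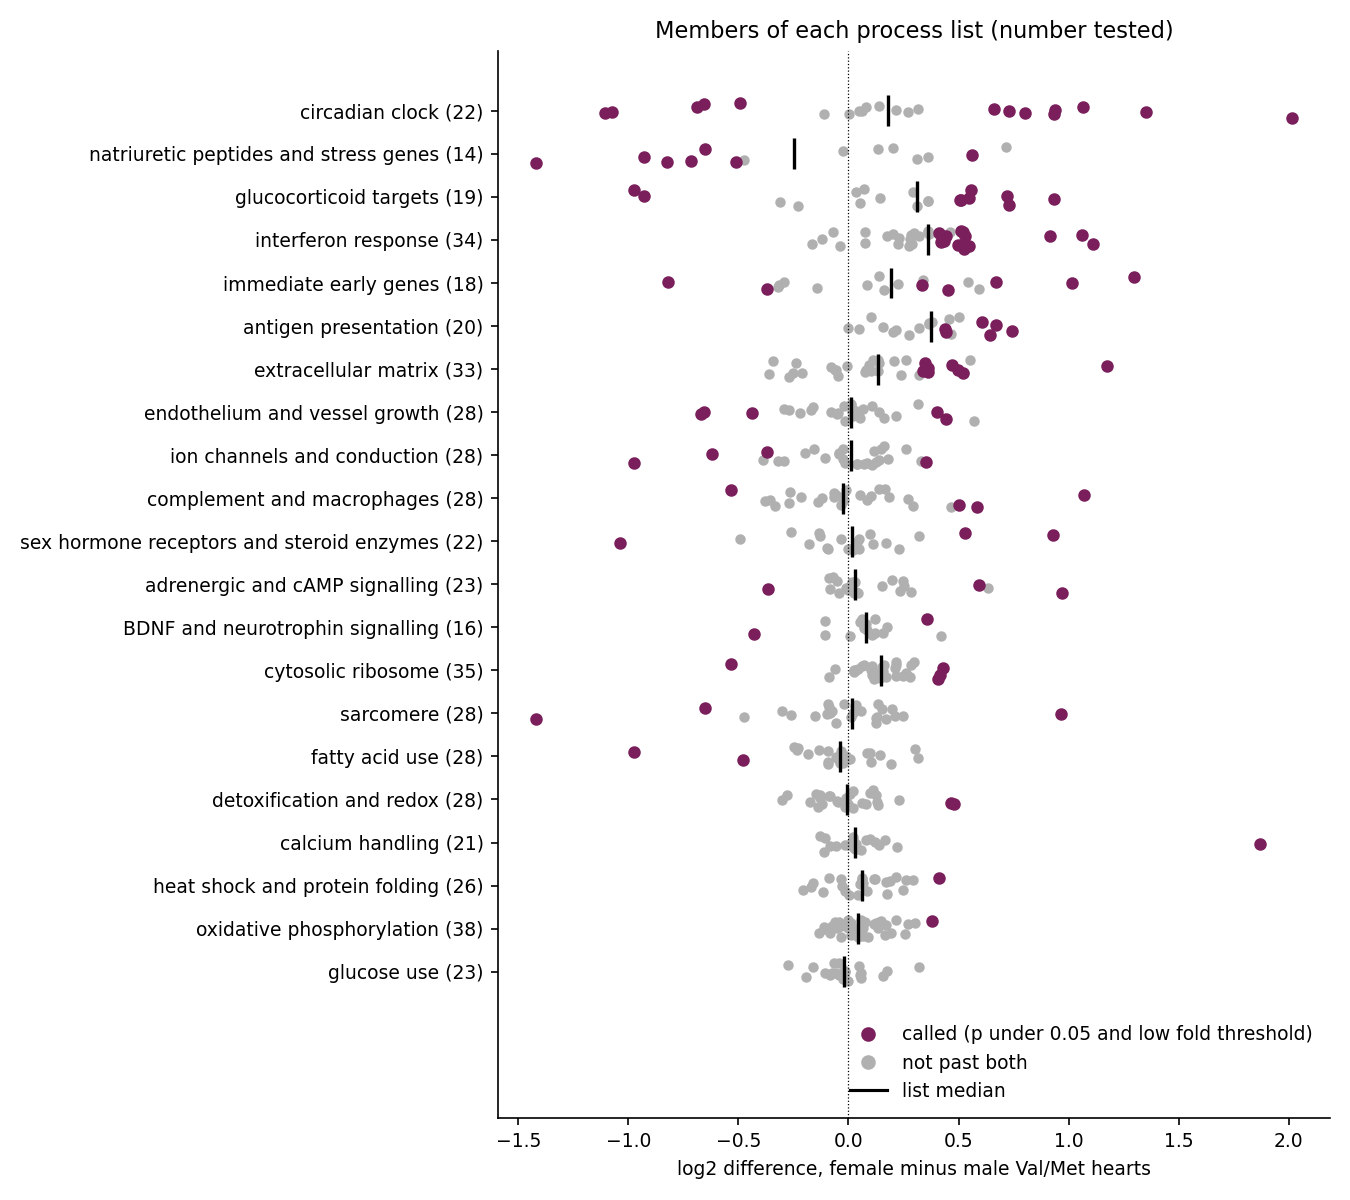
Log2 difference between female and male Val/Met hearts (x axis, female minus male) for each tested member of 21 process lists (y axis, number of tested members in brackets), with called members in purple and list medians as black bars. Clock members lie far out on both sides of 0, the 14 called interferon members are all on the female side, and 0 of 23 glucose members are called.

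The circadian clock had the largest share of called members among the 21 process lists. The output factor Dbp was 4.04-fold higher in females, Per1, Per2, Per3, Nr1d1, Nr1d2, Ciart and Bhlhe40 were higher as well, and Nfil3, Arntl, Npas2 and Cry1 were among the 5 that were lower. The called members that were higher in females are thus repressors, Rev-erb receptors and outputs. Those that were lower include 2 of the activators but also the repressors Cry1 and Nfil3. Of the 22 members, 9 had an adjusted p under 0.05, and 13 of 22 had no overlap between female and male hearts. The time of day at which the hearts were taken is not given in the sources used here, and its part in these differences was not tested.

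To show the DNA next to which these transcripts start, the bases before the RefSeq start are given for the 5 clock genes with the smallest p that have an entry (RefSeq, build GRCm38.p6, in the direction of transcription). The 250 bases before the start were searched on both strands for the E-box bound by Bmal1 with Clock or Npas2 (CACGTG), the D-box bound by Dbp and Nfil3 (TTATGTAA), the heat shock element (GAANNTTC) and the cAMP response element (TGACGTCA). Stretches that GENCODE M21 annotates as exon were left off. Capitals mark a match.
Dbp (chr7:45704997-45705087, plus strand): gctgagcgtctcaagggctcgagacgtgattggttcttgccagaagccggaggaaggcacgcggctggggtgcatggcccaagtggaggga
Nfil3 (chr13:52981074-52981289, minus strand): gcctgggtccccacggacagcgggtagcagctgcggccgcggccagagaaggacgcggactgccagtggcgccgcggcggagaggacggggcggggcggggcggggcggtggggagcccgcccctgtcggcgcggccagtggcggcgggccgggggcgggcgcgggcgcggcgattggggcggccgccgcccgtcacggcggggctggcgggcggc
Npas2 (chr1:39194022-39194211, plus strand): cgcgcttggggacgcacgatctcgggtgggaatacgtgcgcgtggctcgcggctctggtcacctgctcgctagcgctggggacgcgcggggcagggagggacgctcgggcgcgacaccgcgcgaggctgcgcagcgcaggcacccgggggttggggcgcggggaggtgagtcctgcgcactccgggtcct
Arntl (chr7:113207215-113207464, plus strand): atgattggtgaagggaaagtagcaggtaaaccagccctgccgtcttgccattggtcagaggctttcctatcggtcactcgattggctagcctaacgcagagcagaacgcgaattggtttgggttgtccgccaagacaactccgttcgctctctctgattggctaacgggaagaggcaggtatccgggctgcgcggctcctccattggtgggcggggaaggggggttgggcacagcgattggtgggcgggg
Per3 (chr4:151044666-151044915, minus strand): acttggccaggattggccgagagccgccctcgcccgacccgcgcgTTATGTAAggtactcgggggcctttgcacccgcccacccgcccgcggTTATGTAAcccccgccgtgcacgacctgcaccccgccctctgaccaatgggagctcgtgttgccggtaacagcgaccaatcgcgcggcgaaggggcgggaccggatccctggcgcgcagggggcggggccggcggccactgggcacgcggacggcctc

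The Per3 window holds 2 D-boxes, at positions -205 and -158 from the RefSeq start, and the other windows hold none of the 4 motifs. A D-box was found in 0.819% of 32851 RefSeq promoter windows of that length, an E-box in 6.02%, a heat shock element in 6.69% and a cAMP response element in 1.55%. Of the 18 clock genes with an entry, 5 had an E-box within the 250 bases (Per1, Cry1, Tef, Bhlhe41 and Ciart), which is 27.8%, against 6.86% of 27025 genes. A match of letters is a description of the window and not a measured binding site.

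Dbp (chromosome 7, 45705088 to 45710203), a leucine zipper activator at the output of the clock, had 3807, 3451, 3614 and 3636 normalized read counts in the 4 female hearts. In the 6 male hearts it had between 712 and 1018, with a median of 904. The groups were far apart, and the hearts within each sex differed little. The log2 difference was 2.02 (standard error 0.129, adjusted p = 5.56e-09), the smallest p of the genes described here. The span of Dbp overlaps Sphk2. Nfil3 (chromosome 13, 52967209 to 52981073), the repressor that competes with Dbp for D-boxes, moved the other way. It had 146, 210, 188 and 164 normalized read counts in females and 360 to 379 in males with a median of 369, a log2 difference of -1.07 (standard error 0.149, adjusted p = 0.000587).

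The activator Arntl had 99.6, 300, 161 and 186 normalized read counts in female replicates 1, 2, 5 and 6 and between 290 and 464 in males (median 378). Female replicate 2 alone reached into the male range. The log2 difference was -1.11 (standard error 0.227, adjusted p = 0.017). Npas2, which can replace Clock as the partner of Bmal1, had 98.5, 82.2, 84.6 and 95.8 in females and 127 to 164 in males (median 145.5), a log2 difference of -0.69 (adjusted p = 0.0104). Clock itself did not pass the test, at -0.11 (standard error 0.187, adjusted p = 0.874).

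Among the repressors, Per2 had 1158, 474, 852 and 644 normalized read counts in females and 273 to 460 in males (median 370). Per3 had 1790, 756, 1285 and 1053 in females and 506 to 729 in males (median 611). Neither gene overlapped between the sexes, and in both female replicate 1 was the highest heart and replicate 2 the lowest. The log2 differences were 1.06 for Per2 (adjusted p = 0.0256), 0.94 for Per3 (adjusted p = 0.0184) and 0.94 for Per1 (adjusted p = 0.069). Cry1 differed by -0.49 (adjusted p = 0.0653), whereas Cry2 (0.14, adjusted p = 0.553) did not pass. Leaving out female replicate 1 gave 0.85 for Per2 and 0.74 for Per1, both still with p under 0.05.

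Nr1d1 (Rev-erb alpha), which silences Arntl and Nfil3, had 3317, 5124, 3837 and 4429 normalized read counts in females and 2029 to 2721 in males (median 2440), a log2 difference of 0.80 (adjusted p = 0.0189). Its relative Nr1d2 differed by 0.73 (adjusted p = 0.0906) and Bhlhe40, a repressor that binds E-boxes, by 0.66 (adjusted p = 0.00757). Ciart, which represses Clock and Bmal1, had 242, 79.7, 168 and 115 in females and 43.4 to 67.8 in males (median 55.4), a 2.55-fold difference (adjusted p = 0.0502). The outputs Tef (0.27, adjusted p = 0.165) and Usp2 (0.31, adjusted p = 0.0998) passed p under 0.05 but not the fold threshold, and Hlf (0.22, adjusted p = 0.504) did not pass. Without female replicates 2 and 6, 11 clock members were called as higher and 4 as lower.

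**Figure D2:**
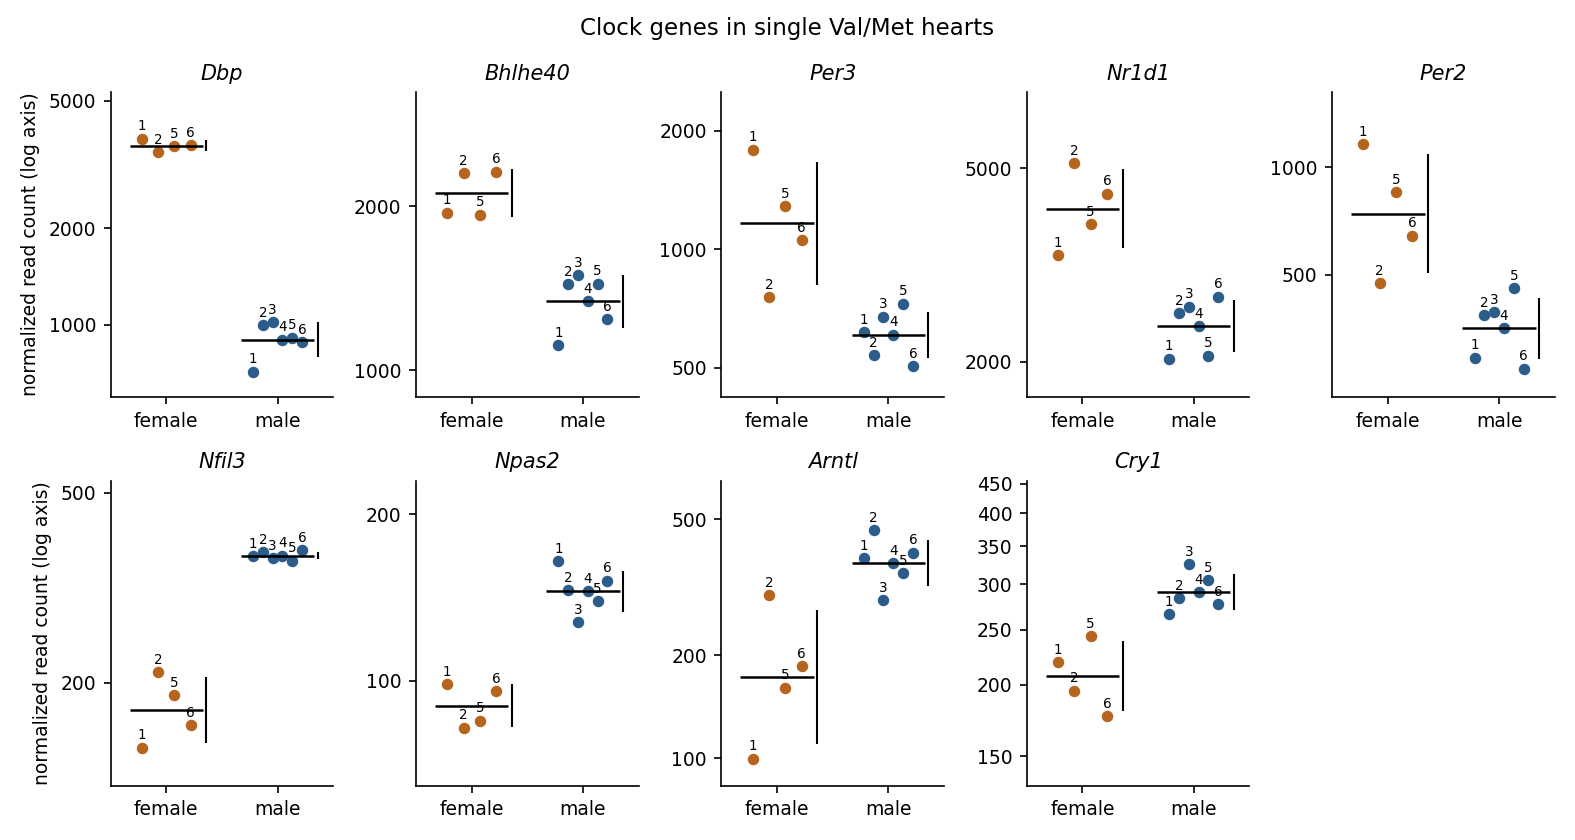
Normalized read counts (log axis) of 9 clock genes in the 4 female and 6 male Val/Met hearts, with replicate numbers above the points. Horizontal bars are geometric means and vertical bars span 1 SD of the log values on each side. In the upper row every female lies above every male, and in the lower row every female lies below every male except for Arntl in female replicate 2.

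Of 34 interferon-response genes tested, 14 were called as higher in females and 0 as lower, with a list median of 0.36 on the log2 scale, and 1 had an adjusted p under 0.05. Of 20 genes of class I and class II antigen presentation, 6 were called as higher and 0 as lower, with a median of 0.37, and 2 had an adjusted p under 0.05. The high values were those of 2 of the 4 female hearts, and without them 0 genes of either list were called as higher. Igtp and Irgm2 encode GTPases that interferon gamma induces against intracellular microbes. Igtp had 345, 1307, 364 and 1239 normalized read counts in female replicates 1, 2, 5 and 6, against 269 to 360 in males with a median of 309. Irgm2 had 712, 2542, 853 and 2123, against 578 to 719 in males with a median of 643.5. Replicates 2 and 6 were thus several times above the males, and replicates 1 and 5 were at or just above the male range. The log2 differences were 1.11 for Igtp (standard error 0.290, adjusted p = 0.0586) and 1.06 for Irgm2 (standard error 0.254, adjusted p = 0.0395). Their annotated spans on chromosome 11 overlap (58199556 to 58207591 and 58199618 to 58222782), so reads could be split between them.

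The same 2 hearts were high in class I genes. H2-K1, a class I heavy chain, had 2555, 4706, 2380 and 5052 in females and 1832 to 2343 in males (median 2072), a difference of 0.74 (adjusted p = 0.0456). B2m, the shared light chain of class I molecules, had 2954, 4993, 2655 and 5556 in females and 2288 to 2541 in males (median 2413), a difference of 0.67 (adjusted p = 0.0633). For these 2 genes replicates 1 and 5 were also above every male heart, by a small margin. H2-Q4 (0.61, adjusted p = 0.0427) and H2-Q6 (2.38-fold, adjusted p = 0.0346) moved with them, H2-D1 differed by 0.44 (adjusted p = 0.197), Psmb8, a subunit of the immunoproteasome, by 0.45 (adjusted p = 0.199) and Nlrc5, the activator of class I genes, by 0.65 (adjusted p = 0.25). Class I genes are near-identical copies of one another, so the split of reads between them is uncertain.

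Without female replicates 2 and 6, a choice made after their values were seen, 1 interferon-response gene was called as lower and 0 antigen presentation genes were called. The medians fell to 0.02 and -0.09, and the differences of Igtp and Irgm2 to 0.19 (adjusted p = 0.731) and 0.27 (adjusted p = 0.535). Replicate 2 carries the prefix 2766 and replicate 6 the prefix 3113, so that 1 heart of each pair was high. The summed level of the macrophage markers was 7490 in replicate 2, above every male (5919 to 7198), and 7104 in replicate 6, within the male range. The other females were at 4808 and 5047. Of the 11 lymphocyte and thymus markers only Cd4 was tested, and it was called as higher in females (0.70, adjusted p = 0.297), at 33.9 to 44.7 normalized read counts in females and up to 34.5 in males. The part of immune cells in the result was not tested.

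In the list of complement and macrophage genes 3 of 28 were called as higher in females (Cd163, Cfb and C3) and 1 as lower (C3ar1). C3, the central complement protein, had 4233, 11558, 6495 and 7533 normalized read counts in females and 3402 to 6784 in males (median 4565), and its difference of 0.58 (adjusted p = 0.294) was lost in 5 of 10 fits that left out 1 heart. The interleukin 10 receptor gene Il10ra, which the study considered, did not pass, at 0.10 (adjusted p = 0.918). Complement factor D (Cfd) fell below the minimum mean. It had 15.5 to 29.1 normalized read counts in females and 4.74 to 13.6 in males, and in the fit without a minimum the difference was 1.43 (adjusted p = 0.294).

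Markers of the heart surface and of the atria were called in part, and none had an adjusted p under 0.05. Of 7 epicardial and mesothelial markers 6 were called as higher (Lrrn4, Upk1b, Upk3b, Msln, Bnc1 and Krt19) with a list median of 1.84, and of 6 atrial markers 3 were called (Myl7, Myl4 and Sln) with a median of 1.21. Upk3b, a membrane protein of mesothelium, had 212, 1979, 606 and 693 normalized read counts in females and 81.2 to 384 in males (median 180). Msln, a mesothelial surface protein, had 166, 1118, 435 and 426, against 39.0 to 373 (median 146). Female replicate 2 was the highest heart for both genes, and replicate 1 lay within the male range. The log2 differences were 1.86 for Upk3b (standard error 0.584, adjusted p = 0.114) and 1.70 for Msln (adjusted p = 0.148), and neither had an adjusted p under 0.05. Wt1, an epicardial transcription factor, did not pass (0.28, adjusted p = 0.599).

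The atrial light chain Myl7 had 98.3, 619, 229 and 266 normalized read counts in females and 48.5 to 132 in males (median 69.2), a difference of 1.73 (adjusted p = 0.171). Myl4 differed by 1.54 (adjusted p = 0.256), Sln, the atrial inhibitor of the calcium pump, by 1.87 (adjusted p = 0.317) and the atrial peptide gene Nppa by 0.71 (adjusted p = 0.472). The summed atrial level was 2752, 10356, 4813 and 5759 in the females and 1997 to 4246 in the males. The summed epicardial level was 791, 4986, 1801 and 2016 in the females and 302 to 1466 in the males, among which male replicate 3 was the highest. Without female replicate 2, 4 epicardial and 0 atrial markers were called, and without replicates 2 and 6 none of either list was called. In the deposited values the females of the other prefix have the same mean as the pair that holds replicate 2. A fit without replicate 2 therefore cannot show what the difference would be without that heart. How much of the atria and surface each dissection kept is not given in the sources used here, and its part was not tested.

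Extracellular matrix genes were called as higher in females for 8 of 33 (Timp3, Lum, Mfap5, Col6a1, Col6a2, Col3a1, Fmod and Mfap4) and as lower for 0, with a list median of 0.13. Timp3, an inhibitor of matrix proteases, had 12868, 8914, 10818 and 10603 normalized read counts in females and 6717 to 8422 in males (median 7651). Every female was above every male, and the difference of 0.50 had an adjusted p of 0.00484. The small proteoglycan Lum (0.34, adjusted p = 0.0623), the microfibril protein Mfap5 (0.47, adjusted p = 0.064) and the collagen VI chains Col6a1 (0.35, adjusted p = 0.14) and Col6a2 (0.36, adjusted p = 0.146) also did not overlap between the sexes. Of the fibrillar collagen chains, Col3a1 was called (0.36, adjusted p = 0.192) and Col1a1 was not (0.24, adjusted p = 0.497). The summed epicardial level above was highest in female replicate 2, and its part was not tested. Without female replicates 2 and 6, 2 matrix genes were called as higher and 2 as lower, with Timp3 at 0.64 (adjusted p = 0.00206). Fibroblast markers summed to 46699 to 55013 in females and 42879 to 47574 in males, with 1 of 7 called.

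**Figure D3:**
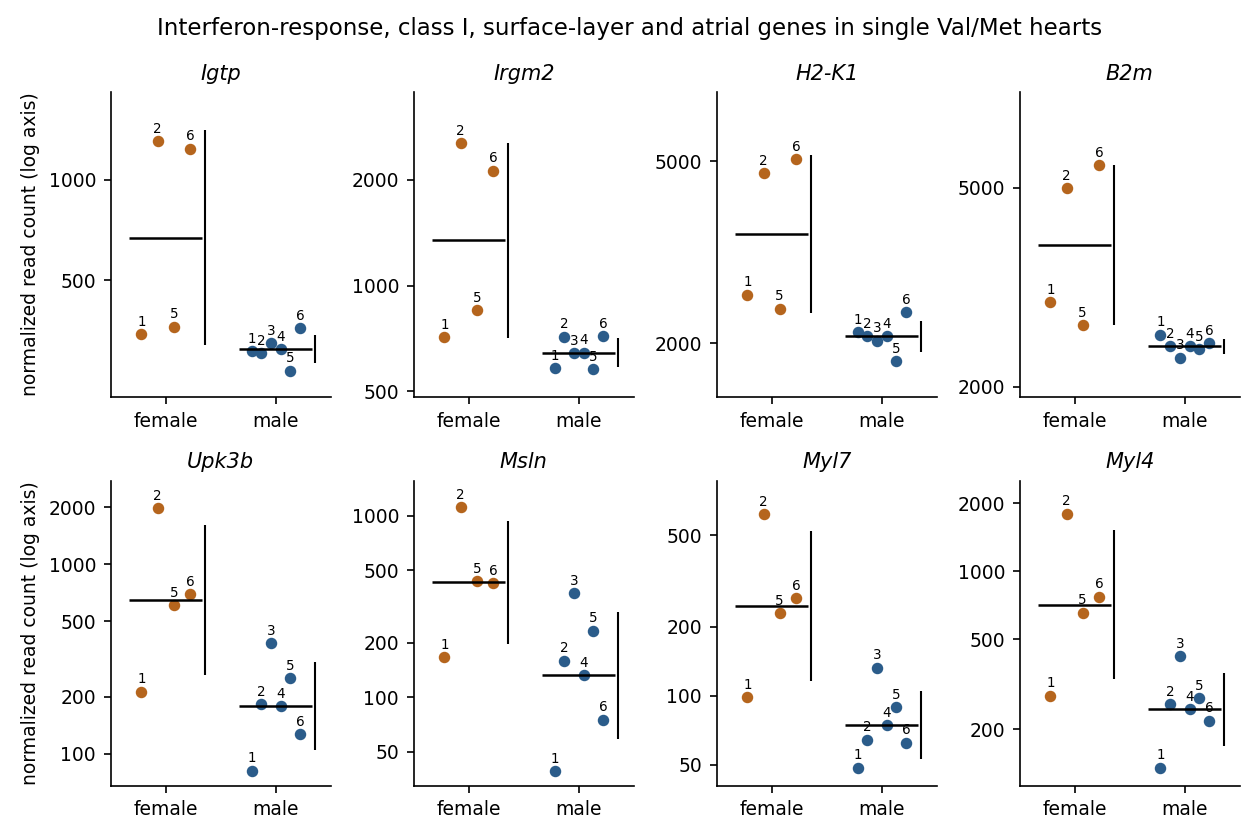
Normalized read counts (log axis) of 4 interferon-response and class I genes (upper row) and of 2 mesothelial and 2 atrial genes (lower row) in single Val/Met hearts, with replicate numbers, geometric means (horizontal bars) and 1 SD of the log values on each side (vertical bars). Female replicates 2 and 6 stand high in the upper row, and female replicate 2 is the highest heart in the lower row.

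Of the contractile apparatus, 1 of 28 sarcomere genes was called as higher in females and 2 as lower, with a list median of 0.02. The higher gene was Tcap (titin-cap, chromosome 11, 98383811 to 98384953), the protein that anchors titin at the Z-disc. It had 22208, 23121, 21193 and 24229 normalized read counts in females and 10939 to 12547 in males (median 11488). Every female was above every male. The log2 difference was 0.97 (standard error 0.090, adjusted p = 1.41e-06), or 1.95-fold. The lower genes were Acta1, the skeletal alpha actin that hypertrophy brings back in the heart, and Ankrd1, a titin-bound stress protein. Acta1 had 1405, 1798, 1148 and 2200 in females and 2538 to 7123 in males (median 4327), a difference of -1.42 (standard error 0.356, adjusted p = 0.0502). The light chain Myl2 (0.25, adjusted p = 0.0628) and the troponins Tnnc1 (0.21, adjusted p = 0.159) and Tnni3 (0.20, adjusted p = 0.192) passed p under 0.05 but not the fold threshold.

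Stress genes leaned to males. Of the 14 tested, 6 were called as lower in females (Rcan1, Acta1, Lcn2, Nppb, Serpina3n and Ankrd1) and 1 as higher (Npr3), with a median of -0.25. Rcan1, an inhibitor and target of calcineurin, had 1587, 1975, 1777 and 1764 normalized read counts in females and 2344 to 2866 in males (median 2452), a difference of -0.51 (adjusted p = 0.011). Nppb, which encodes the B-type natriuretic peptide, had 1594, 1515, 1285 and 1879, against 2078 to 3125 (median 2563). No heart overlapped, yet the difference of -0.72 (standard error 0.304, adjusted p = 0.258) was lost in 4 of the 10 fits that left out 1 heart. Npr3, the receptor that clears natriuretic peptides, differed by 0.56 (adjusted p = 0.114), and Corin, the protease that activates them, by 0.20 (adjusted p = 0.135).

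A list of genes that can collect leftover ribosomal RNA reads was high in male replicates 3 and 5. Its 2 tested members were CT010467.1 and Lars2, the latter a protein-coding gene for the mitochondrial leucyl-tRNA synthetase. Their summed level was 129244 and 71000 in these hearts, 11036 to 27968 in the other males and 6013 to 15195 in females. Acta1 was also highest in male replicates 5 and 3, at 7123 and 5509. Without these 2 hearts, 2 stress genes were still called as lower, Acta1 differed by -1.14 (adjusted p = 0.171) and Rcan1 by -0.56 (adjusted p = 0.0235), and Nppb (-0.58, adjusted p = 0.529) and Ankrd1 (-0.63, adjusted p = 0.495) no longer passed. The part of such reads in these values was not tested.

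In calcium handling, only Sln, listed above with the atrial genes, was called among 21. The pump gene Atp2a2 (SERCA2) had 589276, 556380, 647313 and 506496 normalized read counts in females and 485462 to 621351 in males (median 561428), a difference of 0.03 (standard error 0.118, adjusted p = 0.965). The ranges of the sexes overlapped, and male replicates 4, 5 and 6 held the same deposited value. Its inhibitor Pln (0.14, adjusted p = 0.551) and the release channel Ryr2 (-0.08, adjusted p = 0.805) did not pass either. The exchanger Slc8a1 (0.22, adjusted p = 0.237) and the luminal calcium-binding protein Hrc (0.16, adjusted p = 0.227) passed p under 0.05 below the fold threshold.

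Of 28 ion channel and conduction genes, 3 were called as lower, among them Scn4b, and 1 as higher (Gjc1), with a median of 0.01. Scn4b, a beta subunit of sodium channels, had 806, 658, 656 and 808 normalized read counts in females and 1232 to 1661 in males (median 1438), a difference of -0.97 (standard error 0.211, adjusted p = 0.0232). Every female lay below every male. Gjc1, which encodes connexin 45 of the nodes and conduction system, had 777, 752, 716 and 816 in females and 584 to 607 in males (median 602), a difference of 0.35 (adjusted p = 0.00377). The potassium channel Kcna7, which was among the genes with the smallest p, was 99.8, 124, 113 and 109 in females and 162 to 218 in males (median 188), a difference of -0.76 (adjusted p = 0.00183).

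Signalling genes downstream of hormones and nerves differed one by one. Of 23 adrenergic and cAMP genes, 2 were called as higher in females (Rgs2 and Adora1) and 1 as lower. Rgs2, which shortens signalling by Gq-coupled receptors, had 2563, 1495, 1976 and 1939 normalized read counts in females and 836 to 1183 in males (median 1041), a difference of 0.97 (standard error 0.164, adjusted p = 0.00377). The adenosine A1 receptor gene Adora1 had 670, 701, 715 and 657, against 379 to 504 (median 468.5), a difference of 0.59 (adjusted p = 0.051). Neither gene overlapped between the sexes. The kinase Grk5 (0.28, adjusted p = 0.122) and the cyclase Adcy6 (0.20, adjusted p = 0.134) passed below the fold threshold, and the adenosine A2b receptor gene Adora2b, at 22.1 to 30.5 in females and 10.4 to 28.5 in males, did not pass (0.63, adjusted p = 0.368).

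**Figure D4:**
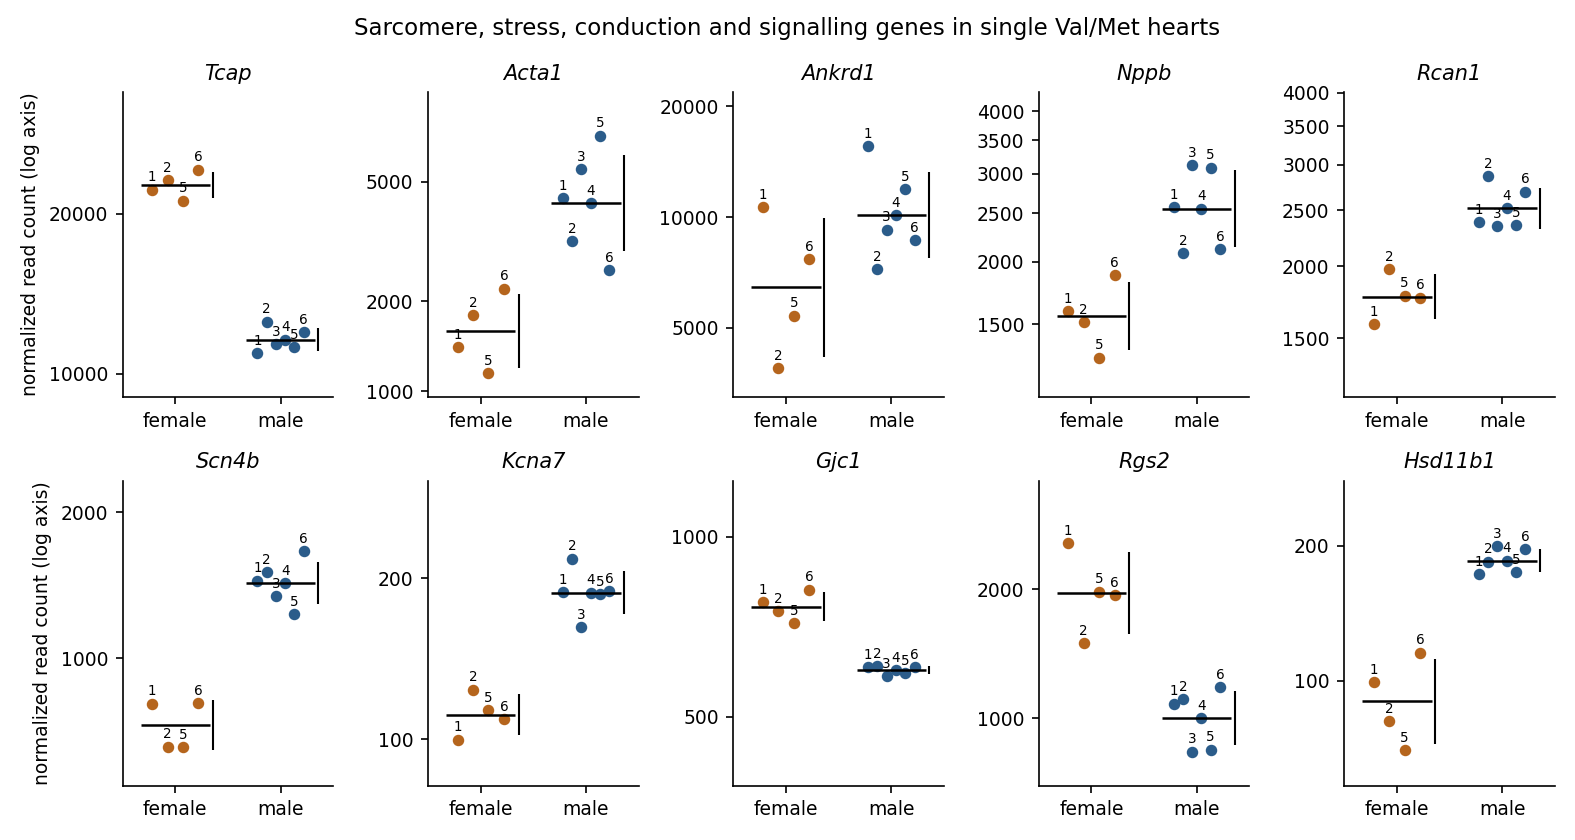
Normalized read counts (log axis) of 10 sarcomere, stress, conduction and signalling genes in single Val/Met hearts, with replicate numbers, geometric means (horizontal bars) and 1 SD of the log values on each side (vertical bars). Tcap, Gjc1 and Rgs2 are higher in every female, Ankrd1 overlaps between the sexes, and the other 6 genes are lower in every female.

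Targets of glucocorticoids were called for 9 of 19, 7 as higher in females (Sult1a1, Per1, Zbtb16, Map3k6, Dusp1, Fkbp5 and Nfkbia) and 2 as lower (Lcn2 and Angptl4), with a median of 0.31. Zbtb16, a zinc finger repressor, had 8283, 7222, 8154 and 7336 normalized read counts in females and 3989 to 7120 in males (median 5178), a difference of 0.56 (adjusted p = 0.0763). Fkbp5, a chaperone partner of the glucocorticoid receptor, had 1736, 1765, 1889 and 1622 in females and 753 to 2071 in males (median 978). Male replicate 2 was the highest heart of all for Fkbp5 and the highest male for Zbtb16 and Sult1a1. The difference of Fkbp5 was 0.73 (adjusted p = 0.244). None of the 19 had an adjusted p under 0.05, and Per1 belongs to the clock list too. Hsd11b1, the enzyme that regenerates active glucocorticoid inside cells, was lower in females, with 99.5, 81.5, 70.2 and 116 normalized read counts against 173 to 200 (median 185), a difference of -1.04 (adjusted p = 0.00162).

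Immediate early genes split, with 5 of 18 called as higher in females (Dusp5, Fos, Maff, Nr4a1 and Junb) and 2 as lower (Ccn1 and Egr1). Dusp5, a phosphatase of ERK, had 330, 244, 287 and 281 normalized read counts in females and 144 to 225 in males (median 178), a difference of 0.67 (adjusted p = 0.0262). Ccn1, a matrix protein induced by stretch, had 812, 700, 703 and 809, against 1015 to 1747 (median 1330), a difference of -0.82 (adjusted p = 0.0145). These 2 genes held in every fit that left out 1 heart, in which the other prefixes still had the full group mean. Nr4a1, an orphan nuclear receptor, was far higher in female replicate 1 (2263) than in replicates 2, 5 and 6 (253, 866 and 661) or in males (178 to 648), and without that heart its difference fell from 1.30 (adjusted p = 0.301) to 0.77 (adjusted p = 0.624). Fos fell likewise, from 1.02 (adjusted p = 0.244) to 0.78 (adjusted p = 0.482).

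Genes of energy metabolism had few calls. Of 28 fatty acid genes, Acot1 (-0.48, adjusted p = 0.15) and Angptl4 (-0.98, adjusted p = 0.25) were called as lower in females, and none as higher. Angptl4, an inhibitor of lipoprotein lipase, ranged from 102 to 198 normalized read counts in females and from 156 to 500 in males. The carnitine carrier Slc25a20 (-0.25, adjusted p = 0.127) and the thioesterase Acot2 (-0.23, adjusted p = 0.157) passed below the fold threshold, and so did Ppargc1a, the coactivator of mitochondrial genes (0.30, adjusted p = 0.29). In the glucose list, with 0 of 23 called, 1 gene had p under 0.05, the kinase Pdk1 (-0.11, adjusted p = 0.335), and Gys1, glycogen synthase, was at -0.19 (adjusted p = 0.341). Of 38 oxidative phosphorylation genes, Atp5k was called as higher (0.38, adjusted p = 0.25), while Cox6a2 (0.30, adjusted p = 0.197), Cox8b (0.26, adjusted p = 0.176) and Ndufa4 (0.22, adjusted p = 0.196) passed below the fold threshold. The differences of these 4 genes were lost without female replicate 2.

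The remaining process lists had few called members. Of 35 cytosolic ribosome genes 3 were called as higher in females (Rps6, Rpl23 and Rpl38) and 1 as lower (Rpl27), and the list median was 0.15. Rps6 had 745 to 976 normalized read counts in females and 559 to 741 in males (0.41, adjusted p = 0.0628), and processed copies of ribosomal genes make their counts uncertain. Of 28 detoxification genes, Gstm2, a glutathione transferase, and Ephx1, an epoxide hydrolase, were called as higher, at 0.48 (adjusted p = 0.00162) and 0.46 (adjusted p = 0.035). Ephx1 had 842, 829, 831 and 839 normalized read counts in the females and 535 to 648 in the males (median 612). Of 28 endothelial genes, the tight junction gene Cldn5 (-0.66, adjusted p = 0.0434), the apelin receptor Aplnr (-0.67, adjusted p = 0.143) and Sox18 were called as lower and Vwf (0.40, adjusted p = 0.167) and Plvap (0.44, adjusted p = 0.232) as higher. The VEGF receptor Kdr was at -0.22 (adjusted p = 0.218), below the fold threshold. Of 26 heat shock genes only Dnajb1 was called, as higher.

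Among sex hormone receptors, steroid enzymes and targets of growth hormone, 2 of 22 were called as higher in females (Igfbp3 and Socs2) and 1 as lower (Hsd11b1, above). Igfbp3, a carrier of insulin-like growth factor, had 1138, 1337, 1328 and 1146 normalized read counts in females and 547 to 769 in males (median 668), a difference of 0.93 (standard error 0.162, adjusted p = 0.00435). Socs2, the brake on growth hormone signalling, had 1688, 1437, 1659 and 1463, against 925 to 1244 (median 1084), a difference of 0.53 (adjusted p = 0.011). Both genes were higher in every female than in every male. Hsd17b12 passed at 0.23 (adjusted p = 0.0829), below the fold threshold.

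Bdnf itself (chromosome 2, 109674700 to 109727007) had 322, 172, 257 and 216 normalized read counts in females and 276 to 394 in males (median 305). Female replicate 1 lay inside the male range and the other females below it. The difference of -0.43 (standard error 0.203, adjusted p = 0.327) was lost in 6 of the 10 fits that left out 1 heart. Reads of the human Met allele may or may not be counted under the mouse gene, which the sources used here do not state. Of 16 tested genes of the neurotrophin list, Pik3r1, a regulatory subunit of the PI3 kinase, was called as higher (0.36, adjusted p = 0.0929), and Ntf3 (0.42, adjusted p = 0.44) and Plcg1 (-0.11, adjusted p = 0.515) did not pass. TrkB was not analysed here.

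Outside these lists, the largest differences with no overlap among protein-coding genes were in genes with low to moderate values. They were picked by size among genes that passed an unadjusted p under 0.05 (limma) and 1.5-fold. Tent5b, an RNA nucleotidyltransferase, had 122, 86.0, 93.1 and 113 normalized read counts in females and 5.48 to 49.9 in males (median 16.2), a difference of 2.63 (standard error 0.543, adjusted p = 0.0173). C7, a terminal complement component, had 51.1, 66.8, 48.0 and 71.1 in females and 186 to 255 in males (median 219). Cdh4, a cell adhesion cadherin, had 30.1, 15.3, 22.3 and 20.7, against 68.3 to 111 (median 90.9). C7 and Cdh4 were 3.73-fold and 4.2-fold lower in females, with adjusted p of 1.01e-05 and 0.00082. Rp1, Nkain4, Ahsg and Cdo1 were higher in females 2.56-fold, 3.91-fold, 2.93-fold and 2.37-fold. Fam124b, Cpxm2, Rtn4r and Lvrn were lower by log2 differences of -1.75, -1.45, -1.36 and -1.21. The adjusted p of the genes from Rp1 to Lvrn is not reported here.

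Several well-expressed genes differed less in size but with little spread. Chd6, a chromatin remodeller, had 5063, 5049, 5280 and 4842 normalized read counts in females and 3117 to 3596 in males (median 3220), a difference of 0.63 (standard error 0.083, adjusted p = 0.000337). Max, the partner of Myc, differed by 0.45 (adjusted p = 0.000587) and Bcl9, a Wnt coactivator, by 0.41 (adjusted p = 0.00174), both higher in females. Ypel2 (-0.64, adjusted p = 0.00243), Bri3bp (-0.35, adjusted p = 0.000656) and the mitochondrial carrier Slc25a51 (-0.26, adjusted p = 0.00207) were lower. The imprinted transcript H19 (1.11, adjusted p = 0.00435), named after its values were seen, had 1059, 1132, 1013 and 1183 in females and 428 to 599 in males.

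To find out which of these differences depend on genotype, the female-male difference in Val/Met was tested against that in each homozygous genotype. No heart is shared between these differences. Female against male, 239 genes (1.8%) passed p under 0.05 and 1.5-fold in Val/Val and 625 (4.72%) in Met/Met. Of the 301 Val/Met genes, 141 were also called in the same direction in Val/Val, which is 46.8% of the Val/Met and 59.0% of the Val/Val calls, and 0 in the opposite direction. With Met/Met, 71 were called in the same direction (23.6% of the Val/Met and 11.4% of the Met/Met calls) and 12 in the opposite direction. The interaction passed p under 0.05 and 1.5-fold for 48 genes (0.362%) against Val/Val and for 459 (3.47%) against Met/Met. At an adjusted p under 0.05 (limma), 0 genes differed from Val/Val, with 253 at an unadjusted p under 0.05, and 45 (0.34%) differed from Met/Met.

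**Figure D5:**
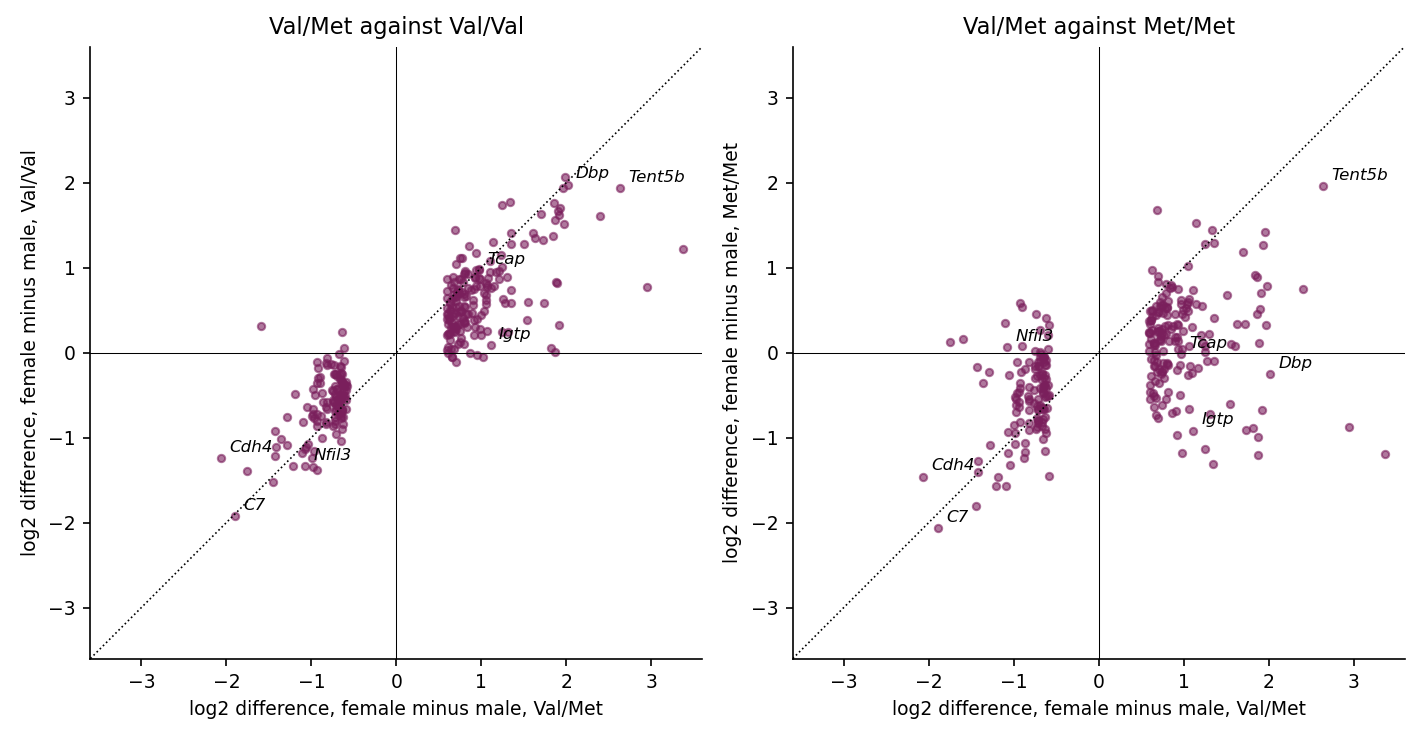
Log2 difference between females and males in Val/Met hearts (x axis) against that in Val/Val (left) and Met/Met hearts (right), for 300 of the 301 genes called at p under 0.05 and 1.5-fold in Val/Met. The pseudogene Rps23-ps2 lies outside the axes. Dotted lines mark equal differences. Dbp and Tcap sit near the line on the left and near 0 of the y axis on the right, whereas C7 sits near the line in both.

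The differences of Dbp and Tcap in Val/Met hearts were set beside those in the other genotypes first. The difference of Dbp was 2.02 in Val/Met, 1.98 in Val/Val and -0.25 in Met/Met. Female hearts had 3955 ± 266 (SD, n = 6) and male hearts 1010 ± 129 (SD, n = 5) normalized read counts in Val/Val, and 1316 ± 155 (SD, n = 6) and 1585 ± 334 (SD, n = 4) in Met/Met. The difference between Val/Met and Met/Met was 2.27 (adjusted p = 4.4e-07), and that between Val/Met and Val/Val was 0.04 (adjusted p = 1). Nfil3 (-1.14, adjusted p = 0.0211), Bhlhe40 (0.99, adjusted p = 0.015) and Tef (0.62, adjusted p = 0.0489) also differed from Met/Met. Without female Val/Met replicates 2 and 6 the interactions of Nfil3 (-1.22, adjusted p = 0.066) and Bhlhe40 (0.87, adjusted p = 0.17) no longer had an adjusted p under 0.05. Tcap differed by 0.97 in Val/Met and in Val/Val and by -0.02 in Met/Met, where females had 14367 ± 473 (SD, n = 6) and males 14632 ± 2106 (SD, n = 4), an interaction of 0.98 (adjusted p = 0.000965). The list median of the clock was 0.18 in Val/Met, 0.20 in Val/Val and 0.02 in Met/Met, a measure in which opposite directions cancel. Of its 22 members, 8 were called as higher and 5 as lower in Val/Met females, 9 and 5 in Val/Val and 1 and 3 in Met/Met. Over all 13242 autosomal genes these calls were 475 and 395, 408 and 349, and 980 and 990.

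Of the 34 interferon genes 10, and of the 20 antigen presentation genes 17, were called as lower in Met/Met females and 0 as higher, with medians of -0.25 and -0.64. Over all 13242 autosomal genes the same rule called 990 as lower and 980 as higher in Met/Met females, more than in Val/Met. Beside them, 6 of 7 macrophage markers (median -0.58) and 15 of 28 complement and macrophage genes (median -0.50) were called as lower in Met/Met females, as was Cd4 (-0.77), and their part was not tested. Igtp had 371 ± 69.1 normalized read counts (SD, n = 6) in Met/Met females and 694 ± 31.1 (SD, n = 4) in Met/Met males. In Val/Val it had 348 ± 33.0 (SD, n = 6) and 329 ± 49.2 (SD, n = 5), below female Val/Met replicates 2 and 6 in either sex. Against Met/Met, the interaction passed for Irgm2 (1.73, adjusted p = 0.0368), Igtp (2.03, adjusted p = 0.0349), H2-K1 (1.36, adjusted p = 0.0232), H2-Q4 (1.16, adjusted p = 0.0184), B2m (1.41, adjusted p = 0.0184) and H2-Q6 (2.39, adjusted p = 0.015). Without female Val/Met replicates 2 and 6 these interactions were 0.94 for Irgm2 (adjusted p = 0.152), 1.11 for Igtp (adjusted p = 0.0823), 0.86 for H2-K1 (adjusted p = 0.17), 0.83 for H2-Q4 (adjusted p = 0.18), 0.96 for B2m (adjusted p = 0.152) and 1.88 for H2-Q6 (adjusted p = 0.17), so none had an adjusted p under 0.05. Against Val/Val the same contrast for Igtp was 1.02 (adjusted p = 1) and for B2m 0.37 (adjusted p = 1).

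For 5 other genes neither interaction passed the test, with unadjusted p of at least 0.227, which does not show that the genotypes are alike. The differences of C7 were -1.90, -1.92 and -2.06 in Val/Met, Val/Val and Met/Met, those of Hsd11b1 -1.04, -1.08 and -1.32 and those of Igfbp3 0.93, 0.89 and 0.74. Those of Gjc1 were 0.35, 0.38 and 0.30 and those of Acta1 -1.42, -1.11 and -1.28. Among protein-coding genes the smallest p against Val/Val belonged to Map3k21 (-0.37 in Val/Met and 0.55 in Val/Val, an interaction of -0.92), Dipk1a (-0.52), Eid2b (-0.46), Chd6 (0.40) and Zbtb16 (0.74), each with an adjusted p of 0.9999 in limma. Cabp1, which encodes a calcium-binding protein and which the study names, differed by -0.45 in Val/Met, -0.95 in Val/Val and 0.40 in Met/Met, with an adjusted p of 0.0677 for the interaction against Met/Met.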

How the data were processed

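RNA of whole hearts was sequenced. Per the submitters' processing notes, reads were handled with STAR and Partek, and mm10 was the genome. The labels and the study's methods differ on the STAR version, the RNA extraction and the library kit. The deposited signal values are gene counts that the authors normalized per sample, not whole reads, and do not give the read number of each heart, so no count model was used. Whether counting used strand is not given in the sources used here, so overlapping genes cannot be separated. Values were log2 transformed after adding 0.0001. A limma 3.58.1 model (R 4.3.3) over all 31 hearts had 1 mean per group and library name prefix, with moderated two-sided tests and Benjamini-Hochberg adjustment over 13733 genes. The test was tried on simulated data. Whether hearts of a group differ only technically is not stated, and p-values measure the spread between these hearts. Members and lists were chosen with earlier results of these data known. Genes were named by size and by smallest p, over all genes, per list and per interaction, and where the study names them. Other genes, among them the called members of the lists, were named after their values were seen. Alternatives were other offsets, minimums, scalings, prefixes, sample sets, a replicate block and hearts left out. Results for some list members are not reported here.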

Additional observations from a re-analysis of the deposited data

Results flagged for a closer look

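In the 6 male hearts, Plvap, an endothelial gene, was far lower in replicate 1 (208.1 normalized read counts) than in the others. Chance flags about 1 in 20 groups when hearts vary freely, which the hearts of a group do not in the deposited values. Other results stood out because the female-male difference in Val/Met hearts differed from that in Met/Met hearts by an interaction test in limma at an adjusted p under 0.05. For the clock genes the interaction was 2.27 for Dbp, -1.14 for Nfil3, 0.99 for Bhlhe40 and 0.62 for Tef on the log2 scale. For interferon and class I genes it was 1.73 for Irgm2, 2.03 for Igtp, 1.36 for H2-K1, 1.16 for H2-Q4, 1.41 for B2m and 2.39 for H2-Q6. It was 0.98 for Tcap and 0.67 for Cox8b, and -0.40 for Bri3bp, -0.49 for Mcc and -0.74 for Tmem44. Without female Val/Met replicates 2 and 6 the interaction kept an adjusted p under 0.05 for Dbp, Tef, Tcap and Mcc and lost it for the others named here. It was then 0.94 for Irgm2, 1.11 for Igtp and 0.86 for H2-K1. The p-values of that fit hold no spread among female Val/Met hearts, since 1 female per prefix is left.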

How the results depend on the processing

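The 301 genes at 1.5-fold became 178 with an offset of 29, 72 with a minimum of 290, 160 in prefix 2766 alone, 374 (181 higher and 193 lower in females) without female replicates 2 and 6 and 287 to 345 with 1 heart left out. The 158 genes with an adjusted p under 0.05 became 1178 without the prefix term, 94 with the Val/Met hearts alone, 7 in prefix 2766, 8 in prefix 3113, 63 without female replicates 2 and 6, 92 without male replicates 3 and 5 and 57 to 147 with 1 heart left out, the lowest without female replicate 6, and 81, 93 and 98 without female replicate 5, male replicate 6 and male replicate 1 and 104 without male replicate 4. The 870 genes at the lower fold threshold became 326 with a minimum of 290, 370 in prefix 2766, 460 in prefix 3113 and 733 to 939 with 1 heart left out. The 48 interaction genes against Val/Val became 84 without the prefix term, 23 with an offset of 29, 11 with a minimum of 290, 8 and 17 in prefixes 2766 and 3113, 102 without female replicates 2 and 6 and 42 to 71 with 1 heart left out. The 459 against Met/Met became 288, 117 and 207 with that offset, that minimum and prefix 2766, 264 without female replicates 2 and 6, and 334 to 754, the highest without female replicate 1. The cause was not tested, except that single prefixes and left-out hearts hold fewer samples and a higher minimum fewer genes.

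With the replicate block, 1223 genes had an adjusted p under 0.05. Hearts of the 2 sexes that share a number had correlations of their deviations of 0.434, 0.398, -0.020 and -0.126. Female replicates 1 and 2 correlated best with their own number and replicates 5 and 6 did not, so the numbers were not taken as pairs. The 2 females of a prefix mirror each other, so these correlations are not separate checks. Per the study, mice were matched by litter in batches, so some pairing may exist. Of 148 named autosomal genes, 48 were weaker without female replicates 2 and 6, 56 in prefix 2766 alone and 36 in prefix 3113 alone. The prefix means within each Val/Met group are nearly equal in the deposited values. A fit in a single prefix therefore returns nearly the same difference by construction, and its sign is no separate check. In the other fits few genes changed sign. Without female replicates 2 and 6, Nlrc5 was at -0.02 and Il10ra at -0.10. Atp2a2 was at -0.02 with the replicate block and without male replicates 3 and 5, at -0.01 without male replicate 3 and at -0.03 without female replicate 5, and from -0.03 to 0.09 over all fits with 1 heart left out. The leaving out of female replicates 2 and 6 and of male replicates 3 and 5 was chosen after seeing the data. Without female replicates 2 and 6 the spread in the fit comes only from the other groups.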
